A study of Mus musculus with 5 samples.

Results

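The population described here is a set of mouse skin fibroblasts that carried RNA of Pi16, Dpp4 or Sema3c, a combination used to mark fibroblasts of adventitial type. Its members were 478 cell barcodes, 400 from psoriasis-like lesional skin and 78 from imiquimod-treated dermis, out of 833 barcodes in the fibroblast gate of those libraries and 7643 barcodes that passed the quality filter there. A barcode entered the fibroblast gate when it had at least 200 genes, under 20% mitochondrial unique molecular identifiers (UMIs), at least 0.5% of its UMIs on Col1a1, Col1a2, Col3a1 and Dcn together, no UMI of Ptprc, Pecam1 or Rgs5, and under 1% on Krt5 and Krt14. It was a member when Pi16, Dpp4 and Sema3c together had 2 or more UMIs in it. Gated fibroblasts with 0 UMIs of the 3 genes, 142 lesional and 145 imiquimod, served as the contrast. Because these values chose the members, every difference between members and contrast below is a description.

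The study measured RNA of single skin cells, with a 3′ droplet assay per the labels, in C57BL/6 mice. The lesional library was whole skin, carrying psoriasis-like lesions, of untreated K5. Pp6fl/fl mice aged 18 weeks, and the label does not give the body site. In published work with this kind of line, the keratin 5 promoter drives Cre in keratinocytes and the floxed gene is Ppp6c, the catalytic subunit of protein phosphatase 6. The imiquimod library was dermis of 10-week-old wild-type mice whose ears had received imiquimod, an agonist of a Toll-like receptor, on 5 consecutive days. Untreated wild-type dermis and epidermis and non-lesional K5. Pp6fl/fl epidermis, all at 10 weeks, held only 48 gated fibroblasts. Each group was 1 library, so differences could not be set against replicate spread or tested; genotype, treatment, age, tissue part and library cannot be told apart. Intervals printed below are exact 95% intervals and cover counting error only.

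Fibroblasts that express Pi16 and Dpp4 are known from the adventitia of vessels and from the fascia and reticular layers of skin, where they line the connective tissue and have been described as a progenitor-like state. Pi16 encodes a secreted peptidase inhibitor, Dpp4 (CD26) a membrane exopeptidase that trims chemokines and hormones, and Sema3c a secreted class 3 semaphorin. Their neighbours in skin include papillary fibroblasts under the epidermis, the dermal papilla and dermal sheath of the hair follicle, and inflammatory fibroblasts that release chemokines.

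The genes of the rule cannot check the label, since they chose the members, but they show which of them did so. Pi16 (ENSMUSG00000024011, mm10 chromosome 17, 29317680 to 29330593) had UMIs in 383 of 400 lesional members, with a median of 18 and a range of 0 to 529 UMIs per cell. In the imiquimod library it had UMIs in 75 of 78 members, with a median of 5 and at most 47. Dpp4 (ENSMUSG00000035000, chromosome 2, 62330073 to 62412231) was found in 107 lesional members (26.8%) but in 1 imiquimod member (1.28%), where its level of 1.06 CPM (counts scaled to 1000000 UMIs of the population) lay below the 6.83 CPM of leukocyte barcodes of the same library. Sema3c (ENSMUSG00000028780, chromosome 5, 17574281 to 17730268) was found in 170 lesional members (42.5%) and 14 imiquimod members (17.9%). The imiquimod members are thus, by their leading gene, Pi16 fibroblasts with Dpp4 in 1 barcode. Of markers outside the rule, Mfap5 had UMIs in 81% of lesional and 26.9% of imiquimod members, and Clec3b in 78% and 19.2%; in leukocytes the shares were 3.10% and 2.42% for Mfap5.

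Members made up 69.9% of gated fibroblasts in lesional skin (interval 66.0 to 73.7%) and 29.9% in imiquimod dermis (24.4 to 35.8%). The distribution of the 3 genes' summed UMIs differed too. In lesional skin 18.7% of gated fibroblasts had 50 or more UMIs and 24.8% had none, while in imiquimod dermis no barcode reached 50 and 55.6% had none. Just inside the threshold, 31 lesional and 23 imiquimod members had exactly 2 UMIs, and just outside it 30 and 38 barcodes had 1 and were left out of both populations. The lesional 2-UMI members had 327 CPM of Mfap5 and 514 CPM of Clec3b, against 245 and 277 CPM in the lesional 1-UMI barcodes. With every barcode thinned to 3000 UMIs, members were 57.4% of 517 lesional and 16.3% of 209 imiquimod gated fibroblasts, the shallower barcodes being left out.

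**Figure D1:**
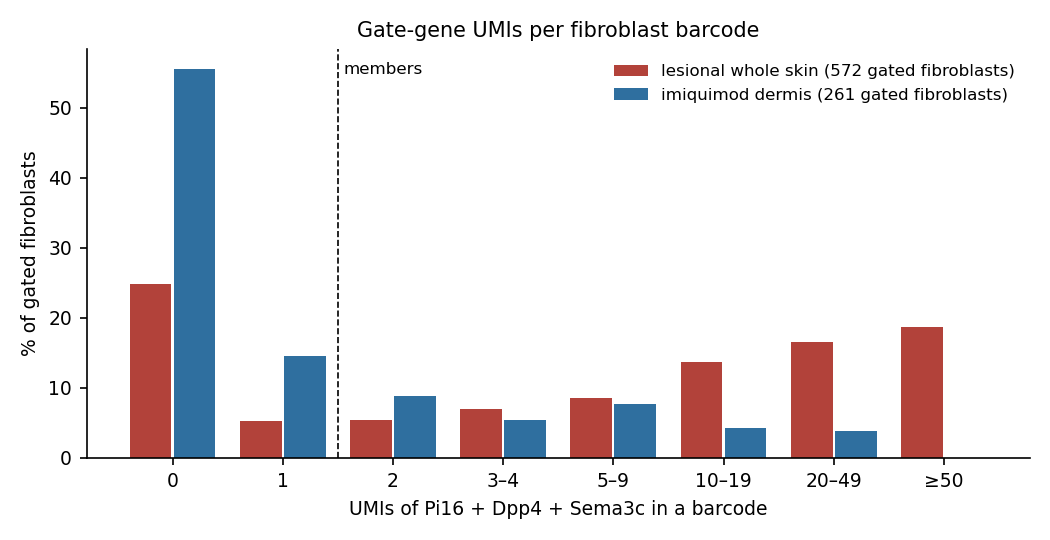
Percent of gated fibroblasts (y axis) in each bin of summed Pi16, Dpp4 and Sema3c UMIs per barcode (x axis) in the lesional and imiquimod libraries, with a dashed line at the member threshold. The largest imiquimod bin is 0 UMIs, at 55.6%, and 18.7% of the lesional barcodes have 50 UMIs or more.

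Depth and background touch these counts. The libraries held 34376558 (lesional) and 41258087 (imiquimod) UMIs. Members were deeper than the contrast, with medians of 12885.5 against 8330.5 UMIs in lesional and 10045 against 7441 in imiquimod dermis. Among leukocyte barcodes, 6.94% of 936 in lesional skin (median depth 5617.5 UMIs) and 9.13% of 3144 in imiquimod dermis (8163.5 UMIs) had 2 or more UMIs of the 3 genes. Dpp4 is known from T cells and dendritic cells, so Pi16 alone is the closer measure of background: 3.10% and 7.32% of leukocyte barcodes had 2 or more of its UMIs, against 64.2% and 25.7% of gated fibroblasts. Of 160 lesional keratinocyte barcodes 45.6% passed the 2-UMI rule, through Sema3c, and none had 2 UMIs of Pi16. Leukocyte markers summed to 41.7 CPM in lesional members, 84.9 in the lesional contrast and 31602 in lesional leukocytes, but to 5589, 7648 and 43115 CPM in the imiquimod populations, with Cd3e at 0 in both member populations. Keratinocyte markers summed to 486 CPM in lesional and 73.0 in imiquimod members, endothelial markers to 210 and 103, and pericyte markers to 218 and 138; Kdr, Tie1, Esam, Myh11 and Des were at 0 in the imiquimod members. The lesional library shared no barcode with any other, and the imiquimod library shared 27 with the non-lesional epidermis. Of 937 different 7-base barcode starts in the lesional library 126 occurred in the imiquimod library, whereas the imiquimod library shared 479 of its 480 with the non-lesional epidermis. The labels give 1 kit for all libraries; whether the lesional library used the same chemistry could not be settled, and it cannot be told apart from condition in any lesional to imiquimod fold. Of the lesional members 86 carried Xist alone and 231 Y-linked RNA alone, so the library pooled cells of both sexes, whereas no imiquimod member carried Xist. The doublet caller marked 1 and 2 barcodes, too few to be used, and doublets were not removed. Ppp6c had 32.9 CPM in lesional members and 40.2 CPM in imiquimod members; a 3′ tag outside a deleted part checks nothing, and the Cre line is known to act in keratinocytes.

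Mfap5, a marker of this cell state that the rule did not use, encodes a microfibril glycoprotein of elastic fibres (ENSMUSG00000030116, mm10 chromosome 6, 122505845 to 122529290). Lesional members had 1141 CPM against 217 CPM in the contrast, a ratio of 5.26 (interval 4.71 to 5.89), and 324 of 400 members against 50 of 142 contrast barcodes had a UMI. With barcodes thinned to 3000 UMIs these shares were 68.7% and 20.5%, and the share among leukocytes was 1.2%. In imiquimod dermis Mfap5 stood at 161 CPM in members and 62.4 in the contrast, a ratio of 2.58 (1.94 to 3.46), in 26.9% and 20.7% of barcodes. The single richest member supplied part of that value, and without it the ratio was 1.73 (1.27 to 2.37). The lesional populations were thus far apart in Mfap5, and the imiquimod populations less so.

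The lesional level of Mfap5 stepped up with the summed UMIs of the 3 genes. It was 217, 245, 327, 571, 581, 744, 960 and 1896 CPM in barcodes with 0, 1, 2, 3 to 4, 5 to 9, 10 to 19, 20 to 49 and 50 or more of them. Cd55, a complement regulator on the cell surface, ran from 49.3 CPM at 0 to 199 CPM at 50 or more, and Fbn1, the main fibrillin of microfibrils, from 230 to 1205 CPM. Ctla2a, an inhibitor of cathepsin L-like proteases, was at 36.1 to 67.0 CPM up to 2 UMIs and at 578 to 2602 CPM above that. Apoe, a lipid carrier, ran the other way, from 2757 CPM at 0 to 425 CPM at 50 or more. Bin depth moved as well, with median UMIs of 8330.5 at 0 and 18235 at 50 or more; its part in these levels was not tested. In imiquimod dermis Apoe was likewise at 2194 CPM at 0 and 346 to 560 CPM at 10 or more UMIs, and Mfap5 was at 62.4 and 214 to 399 CPM.

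**Figure D2:**
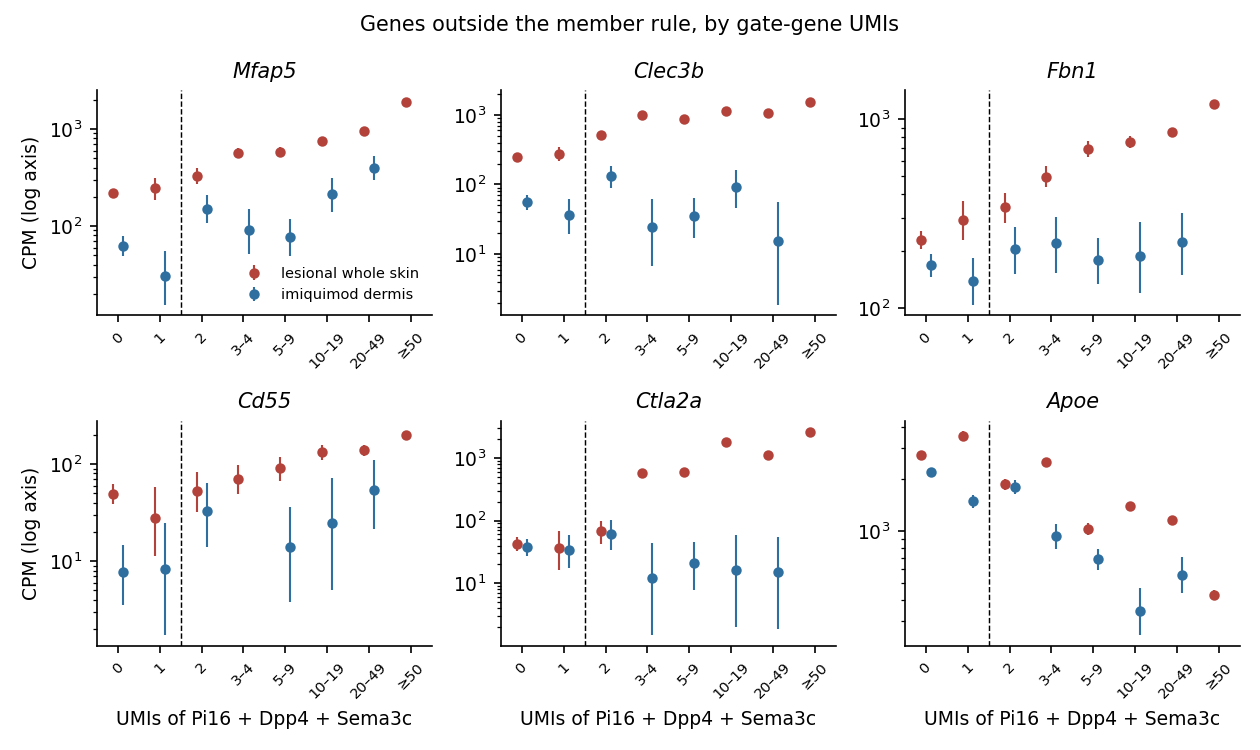
CPM on a log axis (y) of Mfap5, Clec3b, Fbn1, Cd55, Ctla2a and Apoe in gated fibroblasts grouped by summed Pi16, Dpp4 and Sema3c UMIs (x), with exact 95% Poisson intervals, red for lesional and blue for imiquimod; bins with 0 UMIs of a gene have no point. Lesional Mfap5 runs from 217 to 1896 CPM while lesional Apoe runs from 2757 to 425 CPM.

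Across all measured genes, calls of higher or lower required that both bounds of a gene's ratio exceed 1.5-fold in that direction. In lesional skin 398 of 9103 genes (4.37%) were called higher in members than in the contrast and 488 (5.36%) lower. In imiquimod dermis the counts were 70 of 7554 (0.927%) and 51 (0.675%), on a member population with fewer UMIs (944863 against 6024586), which widens the intervals. With trimmed-mean scaling (TMM), which shifted the lesional log2 ratios by 0.19, the lesional split was 546 higher and 359 lower. Of 7115 genes measured in both libraries, 10 (0.141%) were called higher in both and 7 (0.0984%) lower in both. The 10 were Mfap5, Eln, Mfap4, Cthrc1, Prss12, Medag, Adm, Cx3cr1, Cxcl14 and Ifit3, and the 7 were Apoe, Angptl7, Cntfr, Vwa1, Kcna1, Ccnd1 and Bambi. Without the richest barcode of the higher population none of the 10 kept its imiquimod call, and of the 7 only Apoe kept both calls. A single barcode held 82.0% of the member UMIs of Eln, the elastin gene, whose imiquimod ratio was 3.92 with it and 0.707 (0.589 to 0.845) without it. Mfap4, Cthrc1 and Angptl7 changed direction in the same way in imiquimod dermis, Cxcl14 and Cx3cr1 did so after thinning, and Kcna1 and Vwa1 against a deeper contrast. With all barcodes Apoe was lower in members 2.54-fold in lesional skin and 2.29-fold in imiquimod dermis. Lesional leukocyte and keratinocyte barcodes held 3813 and 4930 CPM of Apoe, more than the lesional contrast at 2757 CPM. Imiquimod leukocytes held 1106 CPM, against 2194 CPM in their contrast. Cx3cr1 was also higher in leukocyte barcodes than in members, at 98.4 against 73.2 CPM in lesional skin and 82.1 against 24.3 CPM in imiquimod dermis. The part of free RNA in the Apoe and Cx3cr1 ratios was not tested. Of the 298 genes called higher in lesional members and measured in both libraries, 145 had an imiquimod ratio above 1 and 221 an imiquimod interval wholly below the lesional one.

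**Figure D3:**
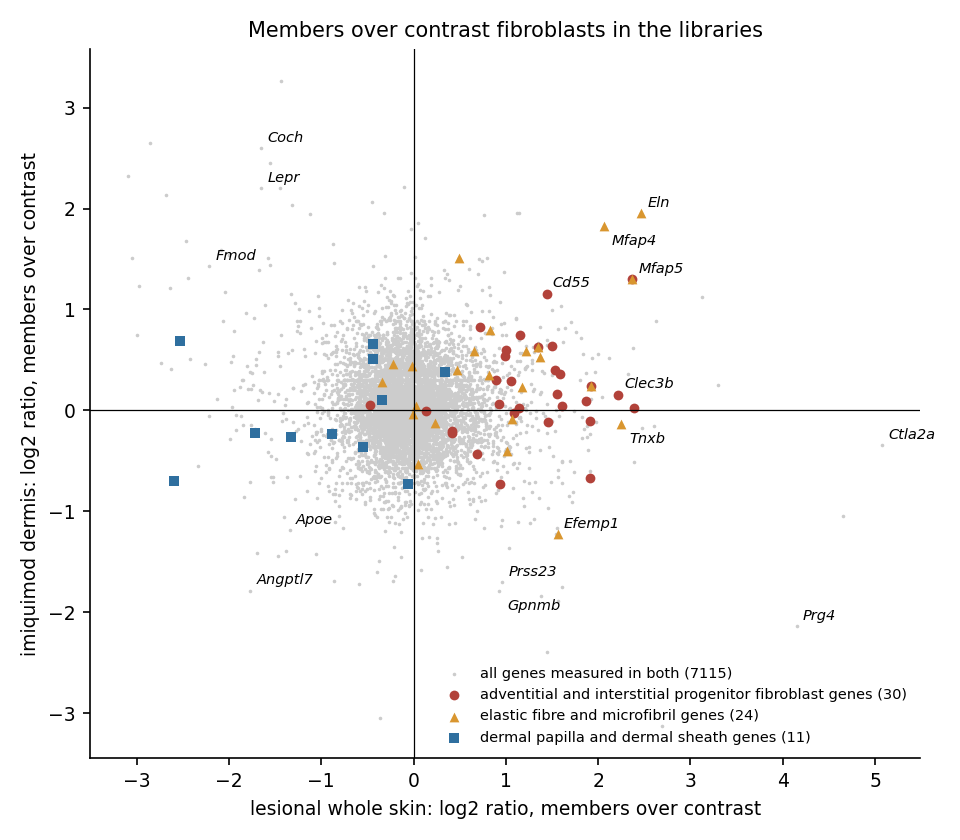
Log2 ratio of members to contrast in lesional (x axis) and imiquimod dermis (y axis) for 7115 genes, with adventitial-type, elastic fibre and dermal papilla or sheath genes coloured. Adventitial-type genes lie to the right with a lesional median of 1.25, while their imiquimod median is 0.12.

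Other genes of a list of adventitial-type fibroblast genes accompanied the 3 genes in lesional skin. This list, like the other gene lists here, was chosen with earlier results of these data known. Its counts are therefore descriptions and cannot check the label. Of all measured genes 4.37% were called higher and 5.36% lower in lesional members, and 0.927% and 0.675% in imiquimod members. List counts of members against contrast are read beside these shares. Of 36 measured genes of that list 28 were called higher in lesional members and 1 lower, with a median log2 ratio of 1.25 against -0.10 over all genes. In imiquimod dermis Mfap5 alone of 30 was called higher, a call lost without its richest member, and none was lower; the median was 0.12 against 0.04. Clec3b, which encodes the plasminogen-binding protein tetranectin, had 1183 CPM in lesional members and 251 in the contrast, a ratio of 4.71 (4.25 to 5.23). In imiquimod dermis it had 62.4 and 55.5 CPM, a ratio of 1.12 (0.777 to 1.62). Anxa3, a phospholipid-binding annexin, was at 94.3 against 11.8 CPM in lesional skin (ratio 7.96) and at 5.29 against 9.40 CPM in imiquimod dermis. Cd55 had ratios of 2.89 (2.28 to 3.71) and 3.03 (1.34 to 7.47), the second of which does not clear 1.5-fold. Cd34, a sialomucin of progenitor and stromal cells, had 620 against 276 CPM in lesional members and contrast (2.25) and 140 against 81.2 CPM in the imiquimod populations (1.72). Ly6a (Sca-1) had lesional and imiquimod ratios of 2.91 and 1.32, and Ly6c1 of 3.05 and 1.29. Pcolce2, an enhancer of procollagen processing, had 375 against 67.8 CPM in lesional skin (5.53) and 59.3 against 58.1 CPM in imiquimod dermis. Aldh1a3, an enzyme of retinoic acid synthesis, was the one listed gene called lower in lesional members, at 22.4 against 56.6 CPM, a call lost without 1 barcode.

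Of 26 measured elastic fibre genes 14 were called higher in lesional members and none lower, with a median of 0.92, and 13 kept the call without the richest barcode. In imiquimod dermis 4 of 24 were called higher, Eln, Mfap4, Mfap5 and Fbn2, and none of the 4 kept the call without its richest barcode. Fbn1 had 883 against 230 CPM in lesional skin (3.84) and 200 against 168 CPM in imiquimod dermis (1.19). Tnxb, a tenascin that spaces collagen fibrils, had 705 against 144 CPM in lesional members and contrast (4.89, 4.27 to 5.63) and 42.3 against 47.0 CPM in imiquimod dermis (0.901, 0.584 to 1.38). Fibulin genes were higher in lesional members, with Fbln2 at 865 against 411 CPM and Fbln1 at 455 against 224 CPM. Efemp1 (fibulin-3) went opposite ways, higher in lesional members at 354 against 116 CPM (3.04, 2.61 to 3.56) and lower in imiquimod members at 74.1 against 180 CPM (0.411, 0.309 to 0.541), and kept both calls.

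Among collagens 6 of 20 were called higher in lesional members and none lower, beside 4.37% and 5.36% of all genes. In imiquimod dermis 1 of 17 was called higher, beside 0.927% of all genes. The fibril-associated Col14a1 had 347 against 65.1 CPM in lesional skin (5.32, 4.35 to 6.58) and 20.1 against 14.5 CPM in imiquimod dermis. Col5a1, which sets fibril diameter, had a lesional ratio of 2.02, and the basement membrane collagens Col4a1 and Col4a2 had 1.75 and 1.70, the latter not called without 1 barcode. Of the proteoglycan and hyaluronan genes 10 of 27 were called higher in lesional members and 5 lower. Without the richest barcode the 10 higher calls held, and 2 of the 5 lower ones did, Fmod and Ogn. Dpt (dermatopontin, which binds decorin) was at 1423 against 387 CPM (3.67) and Ogn (osteoglycin) at 167 against 660 CPM (0.253). Fn1, the fibronectin gene of the adventitial-type list, was at 2071 against 751 CPM (2.76, 2.60 to 2.93). In imiquimod dermis Fn1 was at 225 CPM in members and 245 CPM in the contrast. Prg4, which encodes the joint lubricant lubricin, was at 516 against 24.3 CPM in lesional skin, a ratio of 21.2 (15.4 to 30.2), in 152 of 400 members. In imiquimod dermis Prg4 went the other way, at 11.6 against 68.4 CPM (0.170, 0.0817 to 0.321). That call was lost without the richest barcode.

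Proteases and their inhibitors gave 12 higher and 6 lower calls among 36 genes in lesional skin, beside 4.37% and 5.36% of all genes. Without the richest barcode the 12 higher calls held, and 2 of the 6 lower ones did. In imiquimod dermis none of 32 was called in either direction, beside 0.927% and 0.675% of all genes. Mmp2 (gelatinase A) had 2169 against 935 CPM in lesional members and contrast (2.32), and 874 against 861 CPM in imiquimod dermis. Adamts5, an aggrecanase, had 545 against 139 CPM in lesional skin (3.91, 3.40 to 4.51). Mmp13, a collagenase, was lower in lesional members at 7.14 against 111 CPM, with UMIs in 5 contrast barcodes only. Ctla2a, which no list held, ranked first by log2 ratio with a pseudocount of 5 CPM among the genes that passed the naming rule as higher in lesional members. It was at 1586 against 42.1 CPM, 37.7-fold with a lower bound of 29.5, in 127 of 400 members and 20 of 142 contrast barcodes. In imiquimod dermis it was at 28.6 and 37.6 CPM. The antimicrobial lectin gene Reg3g, which passed the same rule, had a larger ratio of 117 (32.3 to 968), with 83.4% of its lesional member UMIs in 1 barcode. In imiquimod dermis Reg3g was lower in members, at 108 against 228 CPM (0.473, 0.373 to 0.597).

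Immune genes split in lesional skin. Complement genes were called higher in members for 7 of 14 and lower for 1, with a median of 0.73. C3, the central complement component, had 1743 against 740 CPM (2.35, 2.21 to 2.51) and C4b 1128 against 438 CPM (2.57). Chemokine and cytokine genes were higher for 6 of 25 and lower for 9. Among the higher were Cxcl12, a chemokine that retains leukocytes and progenitors through CXCR4, at 1655 against 670 CPM (2.47), and Csf1, a macrophage growth factor, at 151 against 65.1 CPM (2.32). Among the lower was the monocyte attractant Ccl2 at 355 against 1362 CPM (0.260), among the 3 lower calls that held without the richest barcode. The others included the neutrophil attractant Cxcl1 at 514 against 1010 CPM (0.509), Cxcl10 at 83.3 against 235 CPM (0.355) and Il6 at 51.1 against 97.4 CPM (0.525). Without the richest barcode of the higher population the list's median, -0.39 with it, was 0.18.

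In imiquimod dermis the same list had 4 of 21 higher in members and none lower. Il6 was at 201 against 60.7 CPM (3.31, 2.51 to 4.42), Cxcl5, which recruits neutrophils, at 1908 against 1115 CPM (1.71, 1.59 to 1.84), and Cxcl10 at 45.5 against 5.98 CPM (7.61, with a lower bound of 3.39). The Il6 and Cxcl10 calls held without the richest barcode and the Cxcl5 call did not. In lesional skin 1 barcode held 49.6% of the contrast's Cxcl10 UMIs and 47.3% of its Il6 UMIs, and without it their ratios were 0.704 and 0.996. No complement gene of the 14 measured was called in imiquimod dermis. Interferon-stimulated genes were called higher for 6 of 23 and lower for 1 in lesional members. The nuclear DNA sensors of the Ifi200 family led them, with Ifi205 at 410 against 75 CPM (5.46) and Ifi204 at 146 against 38.2 CPM (3.83). In imiquimod members 2 of 21 were higher: Ifit3 at 24.3 against 2.56 CPM (9.50, 2.87 to 49.4) and Isg15, a ubiquitin-like modifier, at 87.8 against 27.3 CPM (3.21, 2.11 to 4.99). Without its richest barcode Ifit3 was at 4.95 (1.34 to 27.4) and lost the call, as it did in lesional skin, while Isg15 kept its imiquimod call.

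Of 36 genes of the TGF-beta and BMP pathways 6 were higher and 7 lower in lesional members, beside 4.37% and 5.36% of all genes; 4 of the 7 lower calls held without the richest barcode. The receptor gene Tgfbr2 was at 567 against 174 CPM (3.27, 2.88 to 3.72), and the BMP target genes Id1 at 48.0 against 205 CPM (0.234) and Id3 at 443 against 919 CPM (0.481). In imiquimod dermis 1 of 29 was called lower, the BMP pseudoreceptor gene Bambi, at 7.41 against 28.2 CPM; without 1 contrast barcode its ratio of 0.263 was 0.667 (0.225 to 1.80). Of 27 Wnt pathway genes 2 were higher in lesional members, beside 4.37% of all genes, and 4 were lower, beside 5.36%. The receptor gene Fzd4 was among the higher, at 68.1 against 17.1 CPM. Wif1, a secreted Wnt inhibitor, was lower in lesional members at 55.6 against 252 CPM. In imiquimod dermis Wif1 was higher in members, with a ratio of 3.14, a call lost without the richest barcode. Igfbp2, an insulin-like growth factor carrier, was at 303 against 99.3 CPM in lesional and 26.5 against 112 CPM in imiquimod dermis; single barcodes held 51.5% of the lesional member UMIs and 56.5% of the imiquimod contrast UMIs of Igfbp2, and neither call held without them.

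Transcription factor genes were higher for 6 of 40 and lower for 5 in lesional members, beside 4.37% and 5.36% of all genes. Without the richest barcode 5 of the 6 and 4 of the 5 held. Among 30 in imiquimod dermis 1 was called in each direction, beside 0.927% and 0.675% of all genes. The higher call, Mkx, held without its richest barcode and the lower call, Klf2, did not. In lesional skin Osr1, a zinc finger factor of connective tissue progenitors, had 162 against 36.8 CPM (4.41, 3.36 to 5.88). Osr2 had 71.7 against 23 CPM there. En1, known from the dermal lineage of the back, had 39.2 against 16.4 CPM in 111 of 400 lesional members, and 0 UMIs in both imiquimod populations; its lesional call was lost without 1 barcode. The T-box gene Tbx3 was at 33.7 against 175 CPM (0.193) and the homeobox gene Meox2 at 32.2 against 173 CPM (0.186). Of 16 dermal papilla or sheath genes 6 were called lower in lesional members, none higher and 10 neither, with a median of -0.73. The 6 were Acta2, Ednrb, Myl9, Rgcc, Sox2 and Tagln, of which Acta2 also belongs to the pericyte and myofibroblast lists. Schwann cell and melanocyte markers were lower too, for 3 of 5 with a median of -1.20, and 2 kept the call without the richest barcode. Pericyte and smooth muscle markers went mostly the other way. Of 5 measured, 3 were higher in lesional members (Abcc9, Kcnj8 and Ndufa4l2) and 1 lower (Acta2), with a median of 1.20. Each of these calls held without the richest barcode. Summed, the list's 10 markers were at 218 CPM in lesional members and 230 CPM in the contrast. The cell type behind these calls was not tested. Acta2, smooth muscle actin of the dermal sheath, was at 16.6 against 125 CPM and Sox2, a dermal papilla factor, at 2.82 against 23.7 CPM. Of the genes named as lower in members, the adhesion molecule gene Cntn1 was at 8.80 against 479 CPM, 54.4-fold, and Unc5d, a netrin receptor gene, had no UMI in lesional members against 101 CPM, at least 202-fold lower. Cntn1 UMIs came from 47 of 142 contrast barcodes. Cell cycle genes were lower for 16 of 23, though Mki67 had UMIs in 7 contrast barcodes only, and with the collagen gate at 1% the list's median of -1.33 became 0.0052.

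Of the genes measured in both libraries 36 were called in opposite directions, and 6 of them had 50 CPM or more in the higher population of each library and kept both calls without the richest barcode. Coch, which encodes the matrix protein cochlin, was at 1194 CPM in lesional members and 3763 CPM in their contrast, 3.15-fold lower. In imiquimod dermis it was at 3809 against 626 CPM, 6.09-fold higher (5.62 to 6.60), with UMIs in 58 of 78 members and 58 of 145 contrast barcodes. Its imiquimod level was 625 CPM at 0 UMIs of the 3 genes and 6224 to 7438 CPM at 10 or more. Lepr, the leptin receptor gene, was at 35.5 against 122 CPM in lesional and 73.0 against 12 CPM in imiquimod dermis (6.10, 3.40 to 11.7). Fmod, the collagen-binding fibromodulin, was at 210 against 993 CPM in lesional skin (0.212) and 399 against 145 CPM in imiquimod dermis (2.75, 2.29 to 3.31). Gpnmb, a membrane glycoprotein, and the protease gene Prss23 went the other way, as did Efemp1. Prss23 was at 326 against 165 CPM in lesional skin and 25.4 against 94.0 CPM in imiquimod dermis. None of the differences between libraries was tested.

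**Figure D4:**
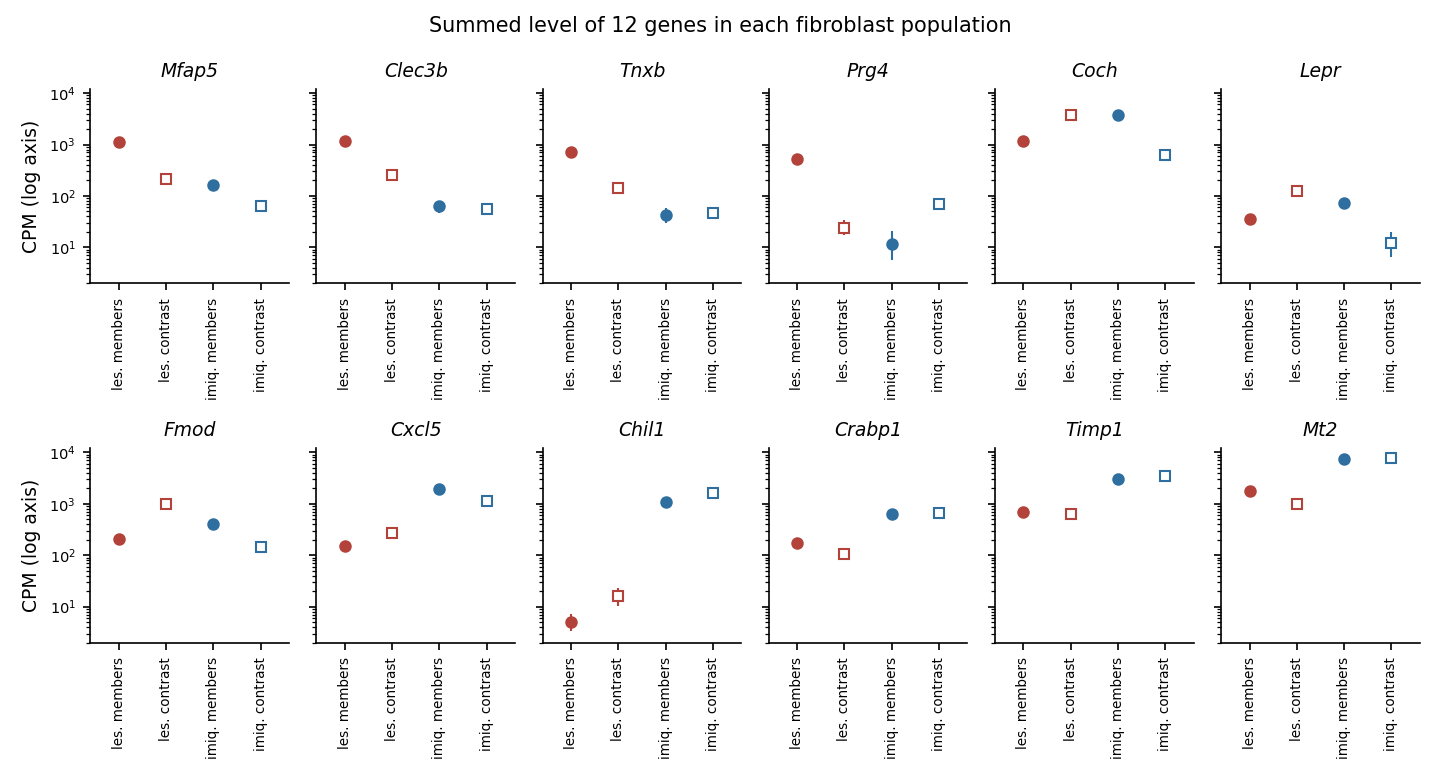
CPM on a shared log axis of 12 genes in lesional (red) and imiquimod (blue) members (filled circles) and contrast (open squares), with exact 95% Poisson intervals. Coch, Lepr and Fmod lie above their contrast in imiquimod members and below it in lesional members, while Mfap5 lies above it in both.

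Next, members of the libraries were set against each other, with the contrast fibroblasts beside them. Of 8748 measured genes 1734 (19.8%) were called higher in lesional than in imiquimod members and 666 (7.61%) lower. The contrast fibroblasts gave 2140 of 9111 (23.5%) and 522 (5.73%), so a library difference of this size was present outside the members too. TMM scaling shifted the log2 ratios of members by -0.35 and gave 924 higher and 1098 lower calls. List medians are therefore read against the median of all genes, 0.44 in members and 0.57 in the contrast. With genes that leukocytes express more strongly left out, the lower calls were 283.

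Adventitial-type genes were higher in lesional than in imiquimod members, with 33 of 35 called higher, 1 lower and a median of 2.11; in the contrast 16 of 33 were higher, with a median of 0.94. Clec3b was 18.9-fold higher in lesional members (14.7 to 24.9) and 4.52-fold in lesional contrast barcodes. Mfap5 was 7.09-fold (6.04 to 8.39) and 3.48-fold higher. Tnxb was 16.6-fold higher in lesional members (12.2 to 23.3), Fn1 9.19-fold and Col14a1 17.2-fold (11 to 28.7). Pi16 itself, which the rule used, was at 2665 CPM in lesional and 654 CPM in imiquimod members. Bmp7 was the one adventitial-type list gene called lower in lesional members, at 38.8 against 77.3 CPM, a call lost without 1 barcode.

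Complement genes were next, with 11 of 16 higher and 5 lower in lesional members and a median of 1.94, against 0.96 in the contrast. C4b was at 1128 and 93.1 CPM, 12.1-fold (9.81 to 15.1), and C3 7.96-fold (6.93 to 9.17). Of the 5 lower, C1qa, Cfp and C5ar1 are leukocyte genes. The others were Cfb (factor B) at 108 against 254 CPM and Clu (clusterin) at 58.3 against 147 CPM. The Clu call was lost without 1 barcode. Collagens were higher for 15 of 20 and lower for 1, with a median of 1.59. In the contrast 10 of 18 were higher, with a median of 1.12. Among chemokine and cytokine genes 6 of 23 were higher and 6 lower, with a median of 0.15. Over all genes 19.8% were higher and 7.61% lower. In the contrast 12 of 26 genes of this list were higher and 5 lower, with a median of 0.97. Ccl11 (eotaxin), which draws eosinophils, was at 319 against 14.8 CPM, 21.6-fold (12.8 to 39.5), and Cxcl13, which draws B cells, at 426 against 20.1 CPM, 21.2-fold (13.6 to 35.3). Cxcl5 was at 151 against 1908 CPM, 12.6-fold higher in imiquimod members, and Il6 3.93-fold higher there.

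Genes higher in lesional members by rule also included Spon2, a secreted matrix protein, with UMIs in 191 of 400 lesional members and 1 of 78 imiquimod members (161-fold, 28.9 to 6380). Sfrp1, a secreted Wnt antagonist, was at 324 against 12.7 CPM, 25.5-fold (14.6 to 49.4), with 246 and 5 positive members. Sfrp4 had 113 CPM in lesional and no UMI in imiquimod members, at least 35.5-fold higher. Ctla2a was 55.5-fold higher in lesional members (38.1 to 84.3) and 1.12-fold in the contrast. Stress genes were higher too, 18 of 34 with a median of 1.01, with Hspa1b, an inducible heat shock protein gene, at 5132 against 461 CPM. In the contrast 25 of 35 were higher, and lesional leukocytes held 11626 CPM of Hspa1b.

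Among the genes higher in imiquimod members, whose number was below the lesional side by CPM and above it by TMM, several came from few members. Chil1, a chitinase-like protein of inflamed tissue, was at 1084 CPM against 4.98 CPM in lesional members, in 15 of 78 imiquimod members. Its log2 ratio of lesional to imiquimod members turned from -6.77 to 0.74 with barcodes thinned to 3000 UMIs, when 34 imiquimod members remained. Crabp1, a retinoic acid carrier of dermal fibroblast subsets, was at 633 against 174 CPM, 3.65-fold higher in imiquimod members and 6.26-fold in the imiquimod contrast, and 54 of 78 members had it. Timp1, a metalloproteinase inhibitor, was at 2998 against 679 CPM (4.42-fold) and the metallothionein gene Mt2 at 7289 against 1743 CPM (4.18-fold). Interferon-stimulated genes were lower in lesional members for 7 of 23 and higher for 5, with a median of -0.26. Over all genes 7.61% were lower and 19.8% higher, so the higher calls are near the share of all genes. Without the richest barcode 5 of the 7 lower calls held, as did the 5 higher ones. In the contrast 6 of 19 were lower and none higher, with a median of -0.64. Ifitm1 was at 233 CPM in lesional and 2011 CPM in imiquimod members. Cytl1, a cytokine-like secreted protein, had 200 CPM, from 7 imiquimod members, and no UMI in lesional ones, at least 402-fold lower. Ccl6 and Ccl9 also passed the rule, but both were higher in leukocytes of the library, at 894 and 540 CPM, than in members, at 195 and 124 CPM; the part of free leukocyte RNA was not tested.

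**Figure D5:**
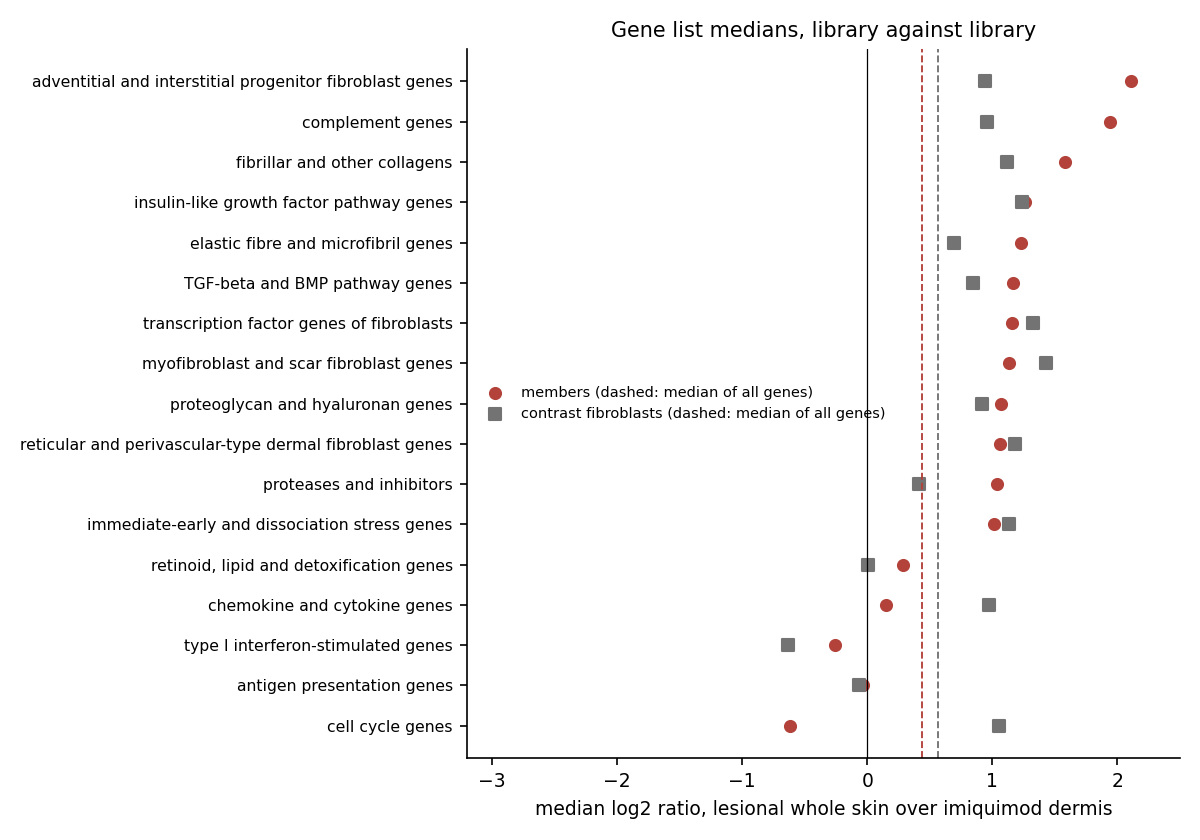
Median log2 ratio of lesional to imiquimod dermis for 17 gene lists, with red circles for members, grey squares for contrast fibroblasts and dashed lines at the all-gene medians of 0.44 and 0.57. Adventitial-type genes (2.11 in members, 0.94 in the contrast) and complement genes (1.94 and 0.96) lie farthest right in members.

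Within the lesional members, levels differed with the genes that admitted a barcode. The 60 barcodes with UMIs of all 3 genes had 2005 CPM of Mfap5, 1932 CPM of Clec3b and 272 CPM of Anxa3. The 186 with Pi16 alone had 739, 818 and 24.7 CPM. Coch was at 2.6 CPM in the former and 1594 CPM in the latter, and Cthrc1, a collagen triple helix repeat protein of matrix-forming fibroblasts, at 594 and 50.9 CPM. The 60 barcodes were also deeper, at a median of 17983.5 against 10617 UMIs. Members with Dpp4 (107) had 1633 CPM of Mfap5 and 6.9 CPM of Coch, and members without it (293) had 920 and 1730 CPM. The 17 members without Pi16 stood apart, with 5177 CPM of Coch and 1910 CPM of Angptl7. Between members with Xist alone and members with Y-linked RNA alone, Mfap5 was at 1521 and 1092 CPM, and Ctla2a at 627 and 2018 CPM; animals and sexes cannot be told apart here.

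The imiquimod members fell into unlike sets by the same split. The 63 barcodes with Pi16 alone had 5807 CPM of Coch, 922 CPM of Crabp1 and 13.0 CPM of Chil1. The 14 with Sema3c had 76.6 CPM of Coch, 99 CPM of Crabp1 and 3244 CPM of Chil1. Cxcl12 was at 509 and 1236 CPM in these sets. The Coch-rich imiquimod members were thus those with Pi16 alone, and Coch was at 564 CPM in lesional and 81.5 CPM in imiquimod members with Pi16 and either other gene. These splits use the genes of the rule and carry no test.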

How the data were processed

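Deposited single-cell count matrices of 5 libraries were used, with 31053 genes and 13288 barcodes. Per the labels, the authors made Chromium Next GEM Single Cell 3′ libraries from enzyme-digested skin with dead cells sorted out; the tools and build named in the submitters' processing notes are CASAVA, Cell Ranger and mm10, and per the file headers the matrices were written by software version 3.0.2. The values are raw UMI counts; for cell calling, the method is not given in the sources used.

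Barcodes with at least 200 genes and under 20% mitochondrial UMIs were kept (11942). Groups came from the labels. UMIs were summed per library and population and divided by the population's total (CPM). A gene was measured with 10 UMIs over both populations and 10 CPM in either; it was called when the exact conditional binomial 95% interval of the ratio lay beyond 1.5-fold. List medians are log2 ratios with a pseudocount of 5 CPM; 0 UMIs enter folds as 3. Shares have Clopper-Pearson intervals. The count model of a replicated design could not be used, with 1 library per group. Genes named by rule had 50 CPM in the higher population and an interval wholly beyond 2-fold, in both libraries for members against contrast (the first 12 by fold in each direction) or between libraries (the first 10), leaving out genes over 5 times stronger in leukocyte or keratinocyte barcodes, plus 2 to 4 genes of each list. As 4 genes passed in both libraries (Eln, Mfap4, Angptl7, Apoe), genes of each library and further list genes were named after their values were seen. Members and the 32 gene lists were chosen with earlier results of these data known. The alternatives tried were other thresholds, gates, scalings, depths and barcode subsets. Scripts were tested on simulated data. Python 3.11.15 with numpy 2.4.6, scipy 1.17.1, pandas 2.3.3, scanpy 1.11.5 and matplotlib 3.10.9 was used, and R 4.3.3 with edgeR 4.0.16 for TMM factors only. Gene positions are from GENCODE M21.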

Additional observations from a re-analysis of the deposited data

Results flagged for a closer look

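Members and contrast fibroblasts differed in opposite directions in the lesional and imiquimod libraries for 6 genes, as log2 ratios of members over contrast. Coch had -1.65 in lesional skin and 2.60 in imiquimod dermis, Lepr -1.65 and 2.20, and Fmod -2.21 and 1.43. Gpnmb had 0.93 and -1.79, Prss23 0.96 and -1.70, and Efemp1 1.56 and -1.23. With 1 library per condition the difference between libraries was not tested.

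Barcodes that met the member rule also occurred in libraries that no comparison used. In the untreated dermis 9 of 24 gated fibroblasts (37.5%, interval 18.8 to 59.4%) met it, and in the non-lesional epidermis 4 of 17 (23.5%, 6.81 to 49.9%). Both intervals contain the imiquimod share of 29.9%. Of keratinocyte barcodes in the non-lesional epidermis 16.0% passed the 2-UMI rule as well. By Pi16 alone, 3 of 24 gated fibroblasts in untreated dermis had 2 or more UMIs (12.5%, 2.66 to 32.4%). In non-lesional epidermis 1 of 17 did (5.88%, 0.149 to 28.7%). The share in imiquimod dermis was 25.7%, which both intervals contain. These few barcodes show neither a like Pi16 share nor a different one. These differences from the analysed libraries were not tested.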

How the results depend on the processing

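Counts are given in the order higher in lesional members than contrast, higher in imiquimod members, higher in both, lower in lesional, lower in imiquimod, lower in both, then higher and lower in lesional than in imiquimod members; the values reported above are 398, 70, 10, 488, 51, 7, 1734 and 666. A 2-fold rule gave 176, 33, 2, 288, 22, 2, 818 and 392. With barcodes thinned to 3000 UMIs they were 160, 36 and 4 higher, 204 lower in lesional skin and 11 in both, and 397 and 240 between libraries; the shares of members were 57.4% and 16.3%. TMM scaling gave 924 and 1098 between libraries. With genes that leukocytes held more strongly left out, 283 were lower in lesional members, an alternative chosen after seeing the data.

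Other member rules moved the shares and counts. With Pi16 and Dpp4 alone the lesional share was 65.9%, 142 genes were lower in imiquimod members and 32 in both. At least 1 UMI gave shares of 75.2% and 44.4% and 4 genes lower in both. At least 3 UMIs gave 64.5% and 21.1%, 80 genes lower in imiquimod members and 17 in both. At least 10 UMIs, added after seeing the data, gave 49% and 8.05%, 20 genes higher in both, 81 lower in imiquimod members, 15 lower in both, and 799 and 390 between libraries. The lesional share was 74.9% with collagen at 1% or more and 74.0% among barcodes with Y-linked UMIs alone. Without the richest barcode of each gene, also added, the counts were 24 higher in imiquimod members and 1 in both, 263 lower in lesional members, 18 in imiquimod members and 1 in both.

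Some log2 ratios changed sign. For imiquimod members over contrast, Cdkn1c (1.53) was -1.85 with Pi16 and Dpp4 alone, -0.14 at 3 UMIs, -0.26 at 10 UMIs and -1.81 thinned; Cxcl14 (1.08) was -1.12 with Pi16 and Dpp4, -0.52 at 10 UMIs and -0.50 thinned; Col8a1 (2.22) was -0.71 with Pi16 and Dpp4 and -1.85 thinned, and Ptx3 (1.86) -0.68 thinned. Kcna1 (-1.41) was 0.32 with collagen at 1%, 0.28 against a deeper contrast, where Vwa1 (-1.39) was 0.016, and 0.049 without the richest barcode. Without that barcode Angptl7 (-1.79) was 1.13, Cthrc1 (1.12) -1.03, Eln (1.95) -0.49 and Mfap4 (1.82) -0.062. The muscle, tendon and chondrocyte list (1.08) was -1.95 with Pi16 and Dpp4, -0.47 at 3 UMIs and -2.13 at 10 UMIs. Thinned Cx3cr1 was -1.03 in lesional members (1.12 unthinned) and -1.27 in imiquimod members (1.96 unthinned). Between libraries Chad (-3.13) was 0.32 with Pi16 and Dpp4, 0.026 at 3 UMIs, 0.39 at 10 UMIs and 1.09 thinned, when Chil1 (-6.77) was 0.74 and Col8a1 (-3.22) 0.65.

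For lesional members over contrast, collagen at 1% gave Stmn1 (-2.73) as 0.64 and the cell cycle list as 0.0052. Barcodes with Xist alone gave Angptl7 (-1.77) as 0.80 and the chemokine list (-0.39) as 0.76. They gave the stress list (-0.33) as 0.32 and the muscle, tendon and chondrocyte list (-0.54) as 0.053. The chemokine list was 0.18 without the richest barcodes, and the reticular list (0.24) -0.026 as a mean over cells. With no CPM minimum the pericyte list (1.20) was -0.35 and the muscle, tendon and chondrocyte list (-0.54) 0.13. The causes of these changes were not tested, and settings that thinned or left out barcodes also held fewer cells or UMIs. Of 1581 values of single genes 28 changed sign, and of 1364 list medians 11 did.

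No paired analysis was possible because each group is 1 library. Leaving out a replicate could not be done for the same reason. Depth limits the imiquimod members most: 78 barcodes with 944863 UMIs, of which 34 met the rule after thinning, and 1 UMI there equals 1.06 CPM.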

Other observations

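In lesional members 4 of 27 cytokine receptor genes were called higher than in the contrast and 1 lower, with Il11ra1, the interleukin 11 receptor, at 670 against 361 CPM and Il1rl1, the interleukin 33 receptor, at 40.8 against 107 CPM, a call lost without 1 barcode; none of 25 was called in imiquimod dermis. Among 30 genes of retinoid, lipid and detoxification pathways 9 were higher in lesional members and 5 lower. Extracellular superoxide dismutase (Sod3) was at 638 against 274 CPM and Rbp4, the retinol carrier of plasma, at 40.5 against 9.87 CPM. In imiquimod members 3 of 27 were higher and 1 lower, and Ptgs2, the inducible prostaglandin synthase, was at 160 against 45.3 CPM.

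Growth factor and receptor genes were higher for 8 of 26 and lower for 3 in lesional members. Vegfd, a lymphatic growth factor, was at 43.7 against 9.87 CPM, and the heparin-binding factors Ptn and Mdk were lower at 43.0 against 237 CPM and 106 against 369 CPM. Axl, a receptor tyrosine kinase, was at 432 against 205 CPM. In imiquimod members 1 of 23 was called higher, Hgf (hepatocyte growth factor), at 23.3 against 5.98 CPM (3.89, 1.61 to 10.8), and 3.18 (1.27 to 9.02) without its richest barcode.

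Genes of other fibroblast states gave calls in both directions in lesional members. Reticular and perivascular-type genes were higher for 8 of 20 and lower for 2, with Abi3bp, a matrix protein, at 428 against 152 CPM and the dipeptidase gene Dpep1 at 473 against 242 CPM. Papillary genes were higher for 3 of 17 and lower for 3, adipocyte precursor genes for 3 and 4 of 15, and myofibroblast genes for 3 and 6 of 21. Of 18 genes of the semaphorin list 2 were higher, the guidance ligands Slit2 at 100.3 against 44.7 CPM and Slit3 at 312 against 145 CPM, and 2 lower. Antigen presentation genes were called for 2 higher and 1 lower of 14, and glycolysis and hypoxia genes for 1 in each direction of 21. Over all genes 4.37% were called higher and 5.36% lower in lesional members. Counts as small as those of these last 3 lists are not read as a trait of the list. The reticular calls all held without the richest barcode of the higher population, whereas the lower call in antigen presentation and in glycolysis and hypoxia genes did not.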
